A study of Mus musculus with 24 samples.

Results

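The subject is the family of F-box genes, whose proteins are the substrate receptors of SCF ubiquitin ligases, described across 4 stages of mouse spermatogenesis. Members were taken by name: all rows of the total and nascent RNA tables whose symbol is Fbxl, Fbxo or Fbxw followed by a number, except Fbxo47, plus the genes of the shared SCF core, Skp1a, Cul1 and Rbx1, and Skp2, itself an F-box protein. This gave 82 of 52323 rows, made up of 18 Fbxl, 36 Fbxo and 24 Fbxw genes and the 4 added by name. The rule uses names alone, but it was set with earlier results of these data known.

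An SCF ligase consists of the adaptor Skp1, the scaffold Cul1, the RING protein Rbx1, which brings the ubiquitin-conjugating enzyme, and 1 F-box protein, which binds Skp1 through its F-box and the substrate through another domain. Fbxw proteins carry WD40 repeats for this, Fbxl proteins carry leucine-rich repeats, and Fbxo proteins carry other or no recognised domains. Since the core is shared, which proteins are marked for destruction depends on which receptors a cell makes. In dividing cells SCF ligases degrade cyclins and inhibitors of cyclin-dependent kinases, and Fbxo5 (Emi1) and Fbxo43 (Emi2) are F-box proteins known for inhibiting another ligase, the anaphase-promoting complex (APC/C).

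The study asked how transcription and RNA stability change as germ cells enter meiosis. Germ cells came from wild-type NMRI mice whose spermatogenesis had been synchronised with WIN18,446, which blocks retinoic acid synthesis, followed by retinoic acid; all groups share this treatment. At 24 days after birth the mice received 2 mg of 5-ethynyl uridine (EU), a uridine analogue built into new RNA, 3 hours before cells were sorted by DNA content into spermatogonia, preleptotene, leptotene and pachytene spermatocytes. Total RNA was sequenced after depletion of ribosomal RNA, and nascent RNA after capture of EU-labelled molecules without depletion, in 12 libraries each. Spermatogonia gave 3 libraries (2 animals), preleptotene cells 1, leptotene cells 4 (3 animals) and pachytene cells 4 (2 animals). Different animals gave the total (4 animals) and the nascent libraries (4 animals), and within an assay 2 animals gave both spermatogonia and leptotene cells and 1 gave both leptotene and pachytene cells. All values are FPKM, which scale fragments to transcript length and to the fragments of the library, and within a stage they are given in the order of the libraries' numbers.

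Several libraries stood apart over all genes. Total libraries held 11988 to 14861 genes at 1 FPKM or more and nascent libraries 8357 to 12332, and ERCC spike-in RNA took 2.49% to 8.19% of summed FPKM in total libraries but 5.01% to 76.5% in nascent ones. Leptotene library 2 of both assays went against its label: in total RNA its summed level of 5 pachytene markers (Piwil1, Pgk2, Adam2, Ccna1, Spata16) was 358 FPKM, against 6.18 to 9.88 in the other leptotene libraries and 340 to 441 in pachytene, and its rank correlation over genes was 0.874 to 0.904 with pachytene libraries and 0.528 to 0.569 with leptotene ones. It is called the library labelled leptotene 2 below, and results that rest on it are given with and without it. Leptotene library 3 held 56.1 FPKM of 4 leptotene and zygotene markers (Dmc1, Prdm9, Meiob, Sycp3) in total RNA, against 119 and 127 in leptotene libraries 1 and 4. Its rank correlation in total RNA was 0.739 to 0.853 with spermatogonial libraries and 0.528 to 0.846 with the other leptotene ones. In nascent RNA these were 0.766 to 0.862 and 0.594 to 0.779. The lowest leptotene value of each assay was with the library labelled leptotene 2. Spermatogonial libraries held more of the markers of somatic cells: in total RNA the summed level of 4 Leydig markers was 165 to 399 FPKM (at most 19.6 in all other libraries), that of 5 Sertoli markers 80.4 to 109 (at most 13.4) and that of 4 peritubular and vascular markers 134 to 317 (at most 20.4).

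Members were tested with limma on log2(FPKM + 1), with libraries of 1 animal and stage averaged first, so that the animal is the replicate; p-values were adjusted (Benjamini-Hochberg) over all genes that reached 1 FPKM in at least 2 libraries. In total RNA 61 of the 82 members passed that filter (15 Fbxl, 33 Fbxo, 9 Fbxw and the 4 added by name) and in nascent RNA 57 did. "Rose" and "fell" mean an adjusted p under 0.05, fold changes are log2 changes of FPKM + 1 with their standard error (SE), and they understate the change of genes near 0. In such bulk samples fewer cells of a type and less RNA per cell cannot be told apart, and FPKM are relative to the other RNA of the same library.

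In the main fits, pachytene cells differed from spermatogonia in about as large a share of the family as of all genes. From spermatogonia to pachytene, 12 of 61 members rose in total RNA (19.7%; 23.1% of all 19202 genes tested rose) and 19 fell (31.1%; 29.7% of all genes fell). Nascent RNA gave 9 of 57 risen (15.8%, against 15.6% of 16375 genes) and 16 fallen (28.1%, against 27.9%). Leaving out spermatogonial library 3 reduced the members called to 13 in total RNA and 13 in nascent RNA. In total RNA 4 of 61 rose and 9 fell, against 3107 and 4594 of 19007 genes. In nascent RNA 4 of 57 rose and 9 fell, against 1934 and 2759 of 16023 genes. These member shares lay below those of all genes. Leaving out leptotene library 1 reduced the total RNA count to 15. This contrast uses no leptotene value, and its fold changes stayed the same. Here and below, a leptotene library acts on its adjusted p through the spread shared by all stages and the genes tested. With the animal as a block, total RNA gave 9 risen and 9 fallen (14.4% and 17.2% of all genes) and nascent RNA 5 and 9 (13.7% and 18.1%). Scaling total RNA to the ERCC spike-ins turned the split to 17 risen and 11 fallen (33.0% and 22.8% of all genes), and scaling nascent libraries to an equal median gave 14 and 14 (24.2% and 22.4%).

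**Figure D1:**
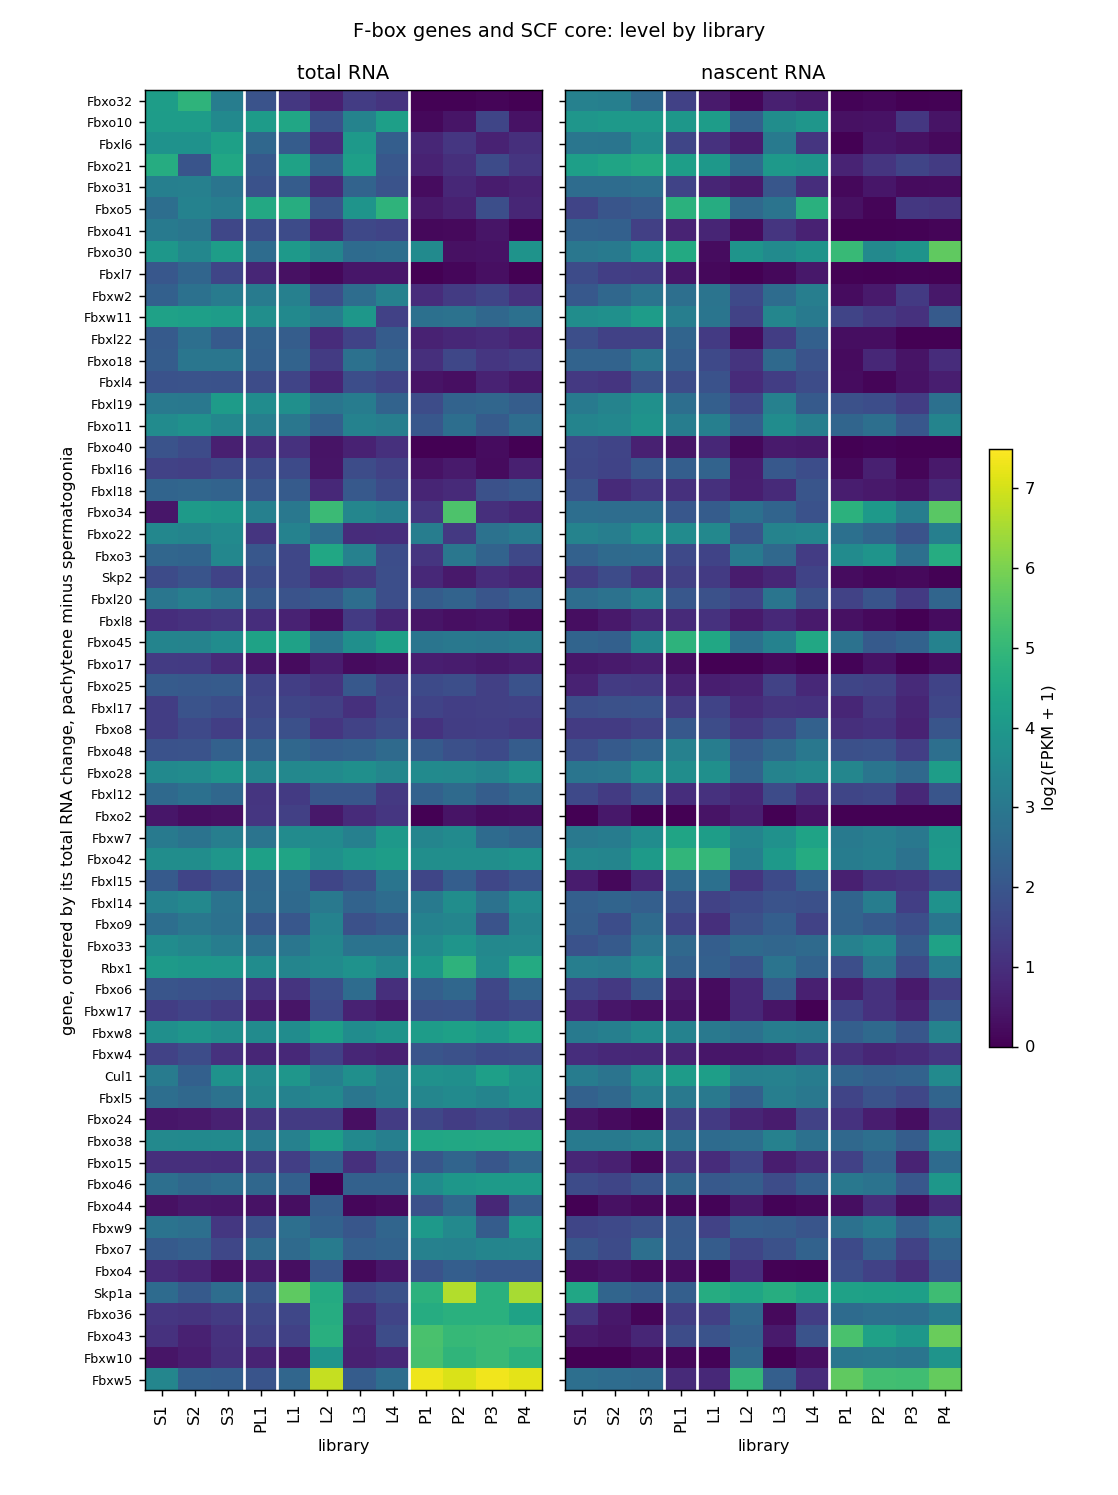
Level of all but 1 of the 61 members that passed the filter in total RNA, as log2(FPKM + 1), in the 12 total (left) and 12 nascent (right) libraries; S, PL, L and P are spermatogonia, preleptotene, leptotene and pachytene, white lines part the stages, and rows are ordered by the total RNA change from spermatogonia to pachytene. The lowest rows are bright in P1 to P4 and in L2, the library labelled leptotene 2, and the upper rows are bright in S1 to S3.

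From leptotene to pachytene, 11 of 61 members rose in total RNA (18.0%, against 22.4% of all genes) and 11 fell (18.0%, against 17.7%). Nascent RNA gave 8 of 57 risen (14.0%, against 15.8%) and 10 fallen (17.5%, against 15.4%). Without leptotene library 1, animal IND1 was represented by the library labelled leptotene 2 alone. In that fit no member passed, 11 members had an unadjusted p under 0.05 in limma, and 9 of all 19005 genes passed. The total RNA losses given below without leptotene library 1 come from this fit. In it, a dependence on library 1 and the weight of the library labelled leptotene 2 cannot be told apart. Without the library labelled leptotene 2 the counts were 15 risen and 17 fallen (28.8% and 24.7% of all genes). With the animal as a block they were 7 and 4 (13.5% and 9.42% of all genes), and after scaling to the ERCC spike-ins 25 and 3 (39.6% and 10.2%). For nascent RNA the count fell to 6 without leptotene library 1, the block gave 7 risen and 3 fallen (12.4% and 7.22% of all genes), and equal medians gave 13 and 9 (22.6% and 15.1%). The authors' table corrected to 5S RNA, which holds 9 of the 12 nascent libraries, gave 18 and 2 (31.1% and 1.72% of all genes).

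Few members passed from spermatogonia to leptotene. In total RNA 0 of 61 rose (0.286% of all genes rose) and 3 fell (4.92%, against 9.52% of all genes); 10 members had an unadjusted p under 0.05 in limma. In nascent RNA 2 of 57 rose (3.51%, against 0.696%) and 3 fell (5.26%, against 9.9%). Leaving out 1 nascent library gave 2 calls (without leptotene library 1 or 4) to 13 (without leptotene library 3). Without leptotene library 1, 24 genes rose and 1321 fell of 16129 tested. Without leptotene library 3, 1118 genes rose and 3005 fell of 16197. The 5S-corrected table gave 0 risen and 16 fallen members (0.461% and 27.2% of all genes).

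Fbxw5, a WD40 receptor known for the centriole assembly factor SAS-6, had the highest total RNA of the F-box genes in every pachytene library. Total RNA of Fbxw5 was 9.92, 3.91 and 3.76 FPKM in spermatogonia, 2.83 in preleptotene, 4.55, 113, 3.57 and 5.35 in leptotene and 156, 134, 159.9 and 146 in pachytene. All 4 pachytene libraries and the library labelled leptotene 2 stood at 113 FPKM or more, and every other library at 9.92 or less. Nascent RNA ran the same way. Nascent RNA of Fbxw5 was 5.703, 5.26 and 4.98 FPKM in spermatogonia, 0.852 in preleptotene, 0.8287, 31.1, 3.82 and 0.947 in leptotene and 50.3, 36.6, 36.1 and 51.6 in pachytene. Its total RNA rose by 4.67 ± 0.72 (adjusted p = 0.0014) from spermatogonia and by 4.06 ± 0.65 (adjusted p = 0.0034) from leptotene. Nascent RNA rose by 2.82 ± 0.59 (adjusted p = 0.0028) and 3.41 ± 0.54 (adjusted p = 0.0011). Without the library labelled leptotene 2 the total rise from leptotene was 4.78, adjusted p = 3.6e-05; without leptotene library 1 it was 3.33, adjusted p = 0.19. In nascent RNA the change from spermatogonia did not pass with the animal as a block (2.52, adjusted p = 0.076) or without leptotene library 1 (2.82, adjusted p = 0.056), nor did that from leptotene without the latter (2.72, adjusted p = 0.089).

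The 78 rows with Fbxl, Fbxo or Fbxw names, which leave out Skp2, were summed as F-box rows. In total RNA this sum was 352 to 364 FPKM in spermatogonia, 277 in preleptotene and 277 to 336 in leptotene libraries 1, 3 and 4. It was 457 in the library labelled leptotene 2 and 456 to 509 in pachytene. Fbxw5 alone made up 26.3% to 35.1% of that sum in pachytene and 24.7% in the library labelled leptotene 2, against 1.02% to 2.73% in the remaining libraries. In nascent RNA its share was 10.9% to 21.1% in pachytene and 0.25% to 2.37% in spermatogonia, preleptotene and leptotene libraries 1, 3 and 4. The other 77 rows together did not part pachytene from spermatogonia in total RNA, as the plot of the summed levels shows. Nascent pachytene library 4 stood apart, with a sum of 475 FPKM against 171 to 301 in the other pachytene libraries and 13.1% of its FPKM in spike-ins against 64.9% to 76.5%, and Fbxo43 was its highest member.

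**Figure D2:**
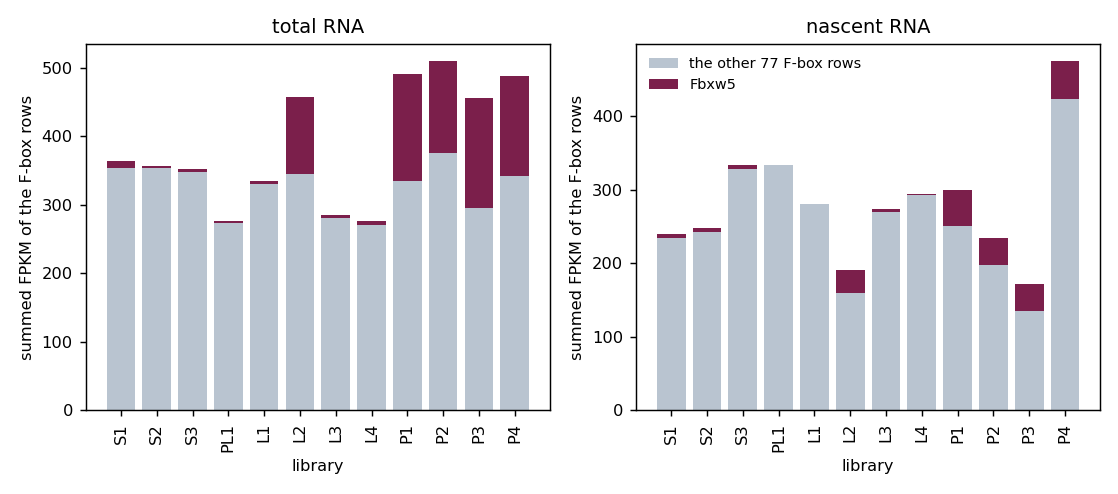
Summed FPKM of the 78 F-box rows in each total (left) and nascent (right) library, with Fbxw5 in dark red and the other 77 rows in grey. Fbxw5 takes 26.3% to 35.1% of the sum in the pachytene total libraries P1 to P4 and 24.7% in L2, and a thin band elsewhere.

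The bases just before the start of 3 of the members highest in pachytene are shown because these genes rose together; the windows come from RefSeq (GRCm38.p6) and hold up to 250 bases before the start, without bases that GENCODE M21 places in the gene. Fbxw5 lies at chr2:25500750-25505471, Fbxw10 at chr11:62847069-62877465 and Fbxo36 at chr1:84839841-84900487, all protein coding and on the plus strand, and their windows are chr2:25500500-25500749, chr11:62846873-62847068 and chr1:84839591-84839840. Capitals mark matches to 1 of 5 motifs searched on both strands, CCAAT, the box of that name, TTTGAA (the cell cycle genes homology region, CHR), TTTGGCGC (E2F), CAACTG (a MYB core) and TGACGTCA (CRE). The motifs were chosen with the values known, and none contains another.
Fbxw5: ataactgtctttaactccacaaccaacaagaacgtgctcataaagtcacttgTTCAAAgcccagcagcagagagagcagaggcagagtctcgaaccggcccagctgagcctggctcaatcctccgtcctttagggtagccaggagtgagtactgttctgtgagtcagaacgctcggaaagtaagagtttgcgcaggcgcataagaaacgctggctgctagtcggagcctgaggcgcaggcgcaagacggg
Fbxw10: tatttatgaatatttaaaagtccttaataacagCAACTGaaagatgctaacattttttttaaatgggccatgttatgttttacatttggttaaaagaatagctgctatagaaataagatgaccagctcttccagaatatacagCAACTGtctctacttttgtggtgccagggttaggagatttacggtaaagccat
Fbxo36: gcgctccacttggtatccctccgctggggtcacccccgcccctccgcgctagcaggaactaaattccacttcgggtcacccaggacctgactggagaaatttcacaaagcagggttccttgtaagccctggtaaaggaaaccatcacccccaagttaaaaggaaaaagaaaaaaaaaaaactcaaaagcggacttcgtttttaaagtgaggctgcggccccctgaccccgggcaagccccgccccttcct
The Fbxw5 window holds 1 CHR match, as TTCAAA; 16% of 32851 windows in the table hold at least 1. The Fbxw10 window holds 2 matches to CAACTG; 11.1% of windows hold at least 1 and 0.865% hold 2 or more. In the Fbxo36 window none of the 5 was found. Among the 86 windows of the 62 members in the table, 20 held CCAAT (23.3%, against 33.8% of all windows), 9 TTTGAA (10.5%, against 16%), 8 CAACTG (9.3%, against 11.1%), 1 TGACGTCA (1.16%, against 1.55%) and 0 TTTGGCGC (0.417% of all windows). A match is only a match of letters, and no factor was measured.

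Fbxo43, or Emi2, is known for holding eggs in meiotic arrest by inhibiting the APC/C. It lies at chr15:36150060-36164884 on the minus strand. Total RNA of Fbxo43 was 1.08, 0.604 and 1.11 FPKM in spermatogonia, 1.73 in preleptotene, 1.75, 25.4, 0.674 and 2.36 in leptotene and 39.7, 31.2, 32.8 and 33.5 in pachytene. The pachytene libraries and the library labelled leptotene 2 did not overlap with any other. Nascent RNA of Fbxo43 was 0.452, 0.344 and 0.7398 FPKM in spermatogonia, 2.36 in preleptotene, 2.81, 4.08, 0.466 and 2.76 in leptotene and 39.4, 18.4, 14.8 and 54.4 in pachytene. Here the library labelled leptotene 2 stood at the level of the other leptotene libraries rather than that of pachytene. Total RNA rose by 4.16 ± 0.64 (adjusted p = 0.0014) from spermatogonia and by 3.28 ± 0.59 (adjusted p = 0.0042) from leptotene, and nascent RNA by 4.21 ± 0.54 (adjusted p = 0.00034) and 3.31 ± 0.49 (adjusted p = 0.00095). The call from leptotene in total RNA was lost without leptotene library 1 (2.73, adjusted p = 0.19) and kept in the 10 other fits that left out 1 library; the call from spermatogonia, in both assays, was kept in all 11.

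Fbxw10 and Fbxo36 were also highest in pachytene. Total RNA of Fbxw10 was 0.352, 0.504 and 1.02 FPKM in spermatogonia, 0.694 in preleptotene, 0.416, 14.2, 0.611 and 0.8098 in leptotene and 38.8, 29.1, 32.6 and 26.95 in pachytene. Nascent RNA of Fbxw10 was 0, 0 and 0.132 FPKM in spermatogonia and 6.67, 7.07, 6.53 and 13.8 in pachytene. It rose by 4.26 ± 0.52 (adjusted p = 0.00092) in total RNA from spermatogonia and by 3.77 ± 0.47 (adjusted p = 0.0031) from leptotene, where the value without leptotene library 1 was 3.203, adjusted p = 0.18. In nascent RNA the rises were 3.098 ± 0.45 (adjusted p = 0.00048) and 2.65 ± 0.41 (adjusted p = 0.001), the latter 2.24, adjusted p = 0.061 without leptotene library 1. Of the exonic bases of Fbxw10, 5.89% are shared with Trim16 on the same strand. Total RNA of Fbxo36 was 1.25, 1.17 and 1.49 FPKM in spermatogonia, 2.02 in preleptotene, 1.995, 23.8, 0.894 and 1.89 in leptotene and 24.1, 26.3, 25.9 and 18.8 in pachytene. The library labelled leptotene 2 lay within the pachytene range. Total RNA of Fbxo36 rose by 3.39 ± 0.62 (adjusted p = 0.0024) from spermatogonia and by 2.77 ± 0.57 (adjusted p = 0.0065) from leptotene (2.26, adjusted p = 0.2 without leptotene library 1), and its nascent RNA by 2.36 ± 0.55 (adjusted p = 0.0052) from spermatogonia (2.002, adjusted p = 0.086 without spermatogonial library 3).

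**Figure D3:**
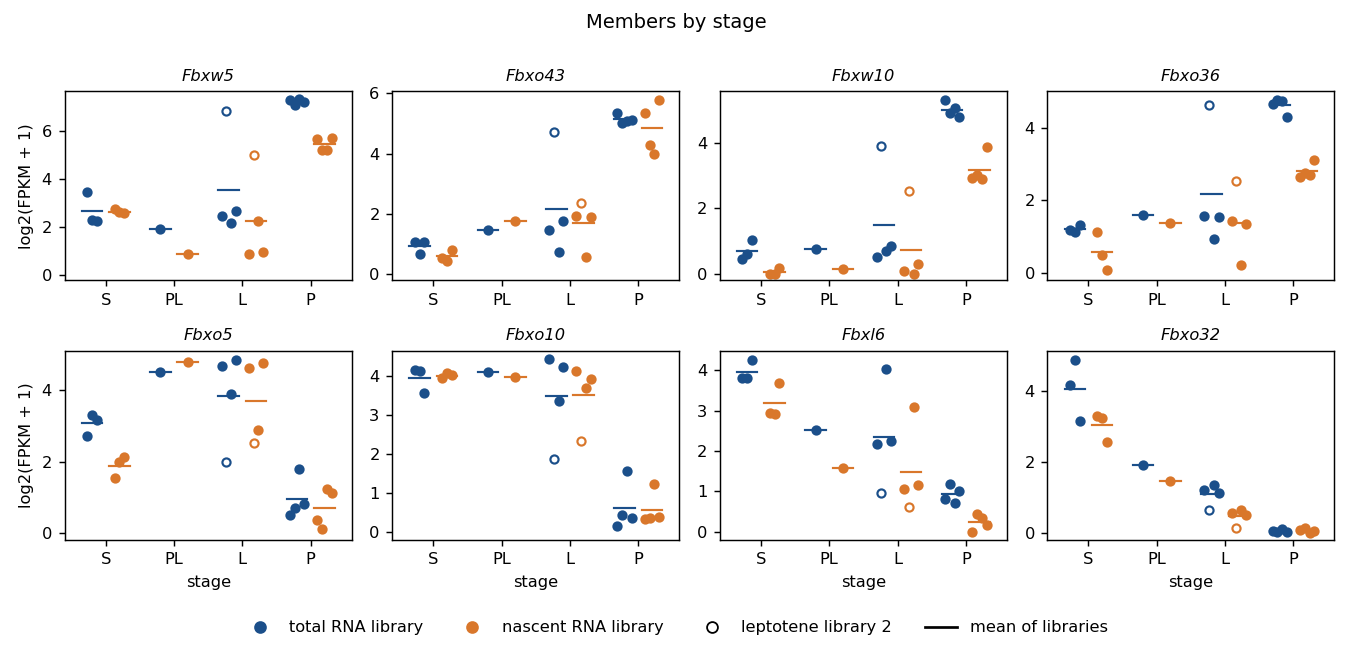
Level of 8 members by stage (S, PL, L, P as above) as log2(FPKM + 1), total libraries in blue and nascent in orange, the library labelled leptotene 2 as an open circle, with a line at the mean of the libraries. In the upper row the pachytene libraries lie above spermatogonia in both assays and the open circle of total RNA lies with them or just under; in the lower row (Fbxo5, Fbxo10, Fbxl6 and Fbxo32) pachytene lies lowest, and the open circle is the lowest leptotene point in both assays.

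The remaining risers were less abundant or changed less. Fbxo4, a receptor for cyclin D1, held 0.869, 0.687 and 0.2703 FPKM of total RNA in spermatogonia and 2.801, 3.69, 3.101 and 3.11 in pachytene, a rise of 1.47 ± 0.36 (adjusted p = 0.0082) that was 1.23, adjusted p = 0.069 without spermatogonial library 3 and 1.47, adjusted p = 0.09 without leptotene library 1. Nascent RNA of Fbxo4 rose by 1.32 ± 0.27 (adjusted p = 0.0024) and kept its call in all 11 fits. Fbxo38, known for the immune receptor PD-1, held 10.6, 10.7 and 10.9 FPKM in spermatogonia and 20.8, 21.5, 21.97 and 22.5 in pachytene. It rose by 0.94 ± 0.34 (adjusted p = 0.043) in total RNA, while nascent RNA changed by -0.38 ± 0.46 (adjusted p = 0.55), a change that did not pass. Fbxo7, which binds the proteasome regulator PI31, rose by 1.46 ± 0.37 (adjusted p = 0.0096) in total RNA, from 3.396, 3.79 and 2.04 to 8.899, 8.65, 9.65 and 9.82 FPKM. Its nascent RNA changed by -0.32 ± 0.47 (adjusted p = 0.63). The nascent changes of Fbxo38 and Fbxo7 lay near the median of all genes from spermatogonia to pachytene, -0.39 in nascent RNA (-0.14 in total RNA). For Fbxo38 the block ended the call (0.89, adjusted p = 0.45), as did leaving out spermatogonial library 3 (0.96, adjusted p = 0.11) or leptotene library 1 (0.94, adjusted p = 0.15), and for Fbxo7 the block (1.79, adjusted p = 0.11) and spermatogonial library 3 (1.16, adjusted p = 0.074) did.

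Further total RNA risers were Fbxo46, Fbxo44, Fbxo15 and Fbxw9. Fbxo46 held 5.66, 4.71 and 5.29 FPKM in spermatogonia, 3.97, 0.0103, 3.99 and 4.02 in leptotene and 11.49, 14.7, 16.1 and 16.1 in pachytene. The library labelled leptotene 2 gave almost nothing for it in total RNA although its nascent value, 3.62 FPKM, lay among those of leptotene libraries 1, 3 and 4, at 3.31, 2.35 and 3.72. Its rise from leptotene was 2.02 ± 0.40 (adjusted p = 0.006), and 1.63, adjusted p = 0.00044 without that library; the block ended the call (1.72, adjusted p = 0.081), as did leaving out leptotene library 1 (2.400, adjusted p = 0.18). Of its exonic bases, 9.54% overlap Qpctl. Fbxo44, of the group that binds glycoproteins, rose by 1.43 ± 0.44 (adjusted p = 0.023) from 0.252, 0.388 and 0.361 to 2.63, 4.702, 0.795 and 3.62 FPKM. Its call was lost without spermatogonial library 3 (1.46, adjusted p = 0.099), leptotene library 1 (1.43, adjusted p = 0.14) or pachytene library 1 (1.18, adjusted p = 0.086). Fbxo15, known as a gene of embryonic stem cells, rose by 1.23 ± 0.37 (adjusted p = 0.022) in total RNA and by 1.35 ± 0.47 (adjusted p = 0.038) in nascent RNA; each call was lost without spermatogonial library 3 (1.22, adjusted p = 0.1 and 1.05, adjusted p = 0.27). Fbxw9 also passed in total RNA (1.45 ± 0.53, adjusted p = 0.045; 2.27, adjusted p = 0.058 with the block), but its pachytene library 3, at 3.56 FPKM, lay within the spermatogonial range of 1.31 to 6.28. The call stayed in 3 of 11 fits without 1 library, those without spermatogonial library 1 and pachytene libraries 2 and 3. The change ran from 0.66 to 1.92 over the 11, lowest without spermatogonial library 3 (0.66, adjusted p = 0.31). Fbxw4 and Fbxw17 rose from leptotene to pachytene by 0.94 ± 0.29 (adjusted p = 0.03) and 0.99 ± 0.26 (adjusted p = 0.017) at pachytene levels of at most 2.94 and 2.71 FPKM, and neither passed with the block (0.99, adjusted p = 0.22 and 1.08, adjusted p = 0.16).

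Among the members that fell, Fbxo5 traced a peak at the start of meiosis. Fbxo5, or Emi1, restrains the APC/C during S phase and G2, and it lies at chr10:5799160-5805600 on the minus strand. Total RNA of Fbxo5 was 5.600, 9.003 and 8.000 FPKM in spermatogonia, 22.1 in preleptotene, 24.6, 2.96, 13.8 and 28.2 in leptotene and 0.4204, 0.613, 2.47 and 0.749 in pachytene. Preleptotene and leptotene libraries 1, 3 and 4 lay above every spermatogonial library, and pachytene lay lowest. Nascent RNA of Fbxo5 was 1.89, 2.95 and 3.41 FPKM in spermatogonia, 26.9 in preleptotene, 23.8, 4.76, 6.46 and 26.3 in leptotene and 0.275, 0.0757, 1.33 and 1.18 in pachytene. Nascent RNA showed the same order, with leptotene library 3 at a middle level. It fell from leptotene to pachytene, with changes of -3.08 ± 0.45 (adjusted p = 0.0032) in total and -3.05 ± 0.52 (adjusted p = 0.0017) in nascent RNA; without leptotene library 1 the total value was -2.63, adjusted p = 0.18, and with the animal as a block the nascent value was -2.28, adjusted p = 0.058. From spermatogonia to leptotene the change was 0.93 ± 0.45 (adjusted p = 0.28) in total and 1.800 ± 0.52 (adjusted p = 0.052) in nascent RNA, neither past the threshold. Without the library labelled leptotene 2 these became 1.38, adjusted p = 0.038 and 2.15, adjusted p = 0.045, and with the animal as a block the nascent change was 2.23, adjusted p = 0.005. From spermatogonia to pachytene total RNA fell by 2.15 ± 0.49 (adjusted p = 0.0065) and nascent RNA changed by -1.25 ± 0.57 (adjusted p = 0.1). The total call was lost with the block (-2.14, adjusted p = 0.084), without spermatogonial library 3 (-2.07, adjusted p = 0.051) and without leptotene library 1 (-2.15, adjusted p = 0.085). The 250 bases before its RefSeq start, in the window chr10:5805416-5805715, hold 3 CCAAT matches, a number that 2.79% of all windows reach; the window is not printed because part of it lies in the GENCODE gene.

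The 2 APC/C inhibitors of the family were high at different stages in total RNA: Fbxo5 held 22.1 FPKM in preleptotene and 0.4204 to 2.47 in pachytene, where Fbxo43 held 1.73 and 31.2 to 39.7. In leptotene libraries 1 and 4 Fbxo5 was at 24.6 and 28.2 FPKM beside 1.75 and 2.36 of Fbxo43.

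Fbxo10, a receptor for the survival protein BCL2, held similar levels in spermatogonia, preleptotene and leptotene libraries 1 and 4 and was lowest in pachytene. Total RNA of Fbxo10 was 16.7, 16.5 and 10.9 FPKM in spermatogonia, 16.3 in preleptotene, 20.5, 2.67, 9.28 and 17.9 in leptotene and 0.108, 0.341, 1.94 and 0.284 in pachytene. Pachytene library 3 held more than the other pachytene libraries in total RNA, and nascent pachytene library 3, from a different animal, was also the highest at 1.33 FPKM against 0.253, 0.279 and 0.308. It fell by 3.23 ± 0.45 (adjusted p = 0.0011) from spermatogonia in total RNA and by 3.45 ± 0.44 (adjusted p = 0.00032) in nascent RNA, and both calls were kept in all 11 fits that left out 1 library. From leptotene the falls were -2.96 ± 0.41 (adjusted p = 0.0031) in total (-2.54, adjusted p = 0.18 without leptotene library 1) and -3.04 ± 0.40 (adjusted p = 0.00075) in nascent RNA. Fbxw2, known for the placental factor GCM1, went from 3.96, 6.02 and 7.71 FPKM in spermatogonia and 7.74 in preleptotene to 0.923, 1.48, 1.88 and 1.12 in pachytene. It fell by 1.63 ± 0.38 (adjusted p = 0.007) in total and 1.94 ± 0.46 (adjusted p = 0.0053) in nascent RNA; neither call held with the animal as a block (-1.403, adjusted p = 0.2 and -1.97, adjusted p = 0.15) or without spermatogonial library 3 (-1.35, adjusted p = 0.06 and -1.65, adjusted p = 0.067).

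Fbxo31, a receptor for cyclin D1 after DNA damage, fell by 2.49 ± 0.37 (adjusted p = 0.0013) in total RNA, from 8.36, 8.57 and 6.54 to 0.176, 0.768, 0.472 and 0.646 FPKM, and by 2.43 ± 0.47 (adjusted p = 0.0018) in nascent RNA, with both calls kept in all 11 fits. Its nascent RNA was already lower in leptotene, with a change of -1.49 ± 0.43 (adjusted p = 0.048), a call that was lost in 7 of 11 such fits (highest adjusted p = 0.26). Fbxl4, which acts on mitochondrial DNA maintenance and mitophagy, fell by 1.42 ± 0.31 (adjusted p = 0.0048) in total and 1.19 ± 0.38 (adjusted p = 0.026) in nascent RNA, the latter -0.95, adjusted p = 0.47 with the block. Its pachytene libraries held 0.312, 0.242, 0.634 and 0.403 FPKM of total RNA, below all spermatogonial libraries at 2.67, 2.77 and 2.74. Fbxo18, an F-box DNA helicase, fell by 1.46 ± 0.39 (adjusted p = 0.013) and 2.08 ± 0.49 (adjusted p = 0.0053). The call of Fbxo18 was lost without spermatogonial library 3 in both assays (-1.28, adjusted p = 0.091 and -1.79, adjusted p = 0.073) and, in total RNA, with the block (-1.94, adjusted p = 0.069). Fbxl22 fell by 1.48 ± 0.34 (adjusted p = 0.0066) in total RNA (-1.12, adjusted p = 0.23 with the block), and 8.06% of its exonic bases overlap Herc1. Fbxl16, Fbxl18, Fbxl19 and Fbxo11 fell in total RNA by 1.02 to 1.36 on the log2 scale, and each call was lost with the block and without spermatogonial library 3, where the adjusted p ran up to 0.25.

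Fbxl6 was high in spermatogonia and in leptotene library 3 alone among the leptotene libraries. Total RNA of Fbxl6 was 13.04, 13.1 and 18.1 FPKM in spermatogonia, 4.72 in preleptotene, 3.51, 0.952, 15.2 and 3.77 in leptotene and 0.765, 1.27, 0.628 and 1.02 in pachytene. Nascent RNA gave the same picture, with 1.09, 0.518, 7.44 and 1.24 FPKM in the 4 leptotene libraries and 6.72, 6.55 and 11.7 in spermatogonia. It fell by 3.11 ± 0.69 (adjusted p = 0.0054) from spermatogonia to pachytene in total RNA and by 3.06 ± 0.66 (adjusted p = 0.0034) in nascent RNA; without spermatogonial library 3 the values were -2.88, adjusted p = 0.056 and -2.69, adjusted p = 0.059. With the block its fall from spermatogonia to leptotene passed as well, with -2.12, adjusted p = 0.01 in total and -2.303, adjusted p = 0.0012 in nascent RNA. In leptotene library 3 the summed level of the 4 leptotene and zygotene markers was lower than in libraries 1 and 4, as given above; the part of this in the Fbxl6 value was not tested.

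Fbxo32, or atrogin-1, a receptor known from muscle wasting, had the largest total RNA fall of the members from spermatogonia to pachytene. Total RNA of Fbxo32 was 16.96, 28.6 and 7.97 FPKM in spermatogonia, 2.799 in preleptotene, 1.33, 0.569, 1.54 and 1.17 in leptotene and 0.0243, 0.0236, 0.0809 and 0.0203 in pachytene. The spermatogonial libraries did not overlap with any other. It fell by 2.71 ± 0.40 (adjusted p = 0.0048) from spermatogonia to leptotene and by 3.79 ± 0.44 (adjusted p = 0.00089) to pachytene in total RNA, and by 2.42 ± 0.34 (adjusted p = 0.00094) and 2.86 ± 0.37 (adjusted p = 0.00034) in nascent RNA. Fbxl7, a receptor for Aurora A, was less abundant, with 3.14, 4.45 and 1.94 FPKM in spermatogonia and 0.266, 0.122, 0.373 and 0.368 in leptotene. It fell by 1.51 ± 0.25 (adjusted p = 0.007) to leptotene in total and by 1.21 ± 0.22 (adjusted p = 0.0044) in nascent RNA. For both genes all of these calls were kept in all 11 fits that left out 1 library.

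Other members with their highest total RNA in spermatogonia were Fbxo41 (7.52, 6.66 and 2.01 FPKM, then 0.717 to 2.26 in leptotene and at most 0.333 in pachytene), Fbxo40, a muscle receptor for IRS1 (2.75, 2.31 and 0.578 FPKM, at most 0.193 in pachytene), and Fbxo17 (1.48, 1.401 and 0.844 FPKM). Fbxo41 fell by 2.098 ± 0.45 (adjusted p = 0.0046) and Fbxo40 by 1.17 ± 0.36 (adjusted p = 0.024) from spermatogonia to pachytene, and Fbxo17 by 0.78 ± 0.21 (adjusted p = 0.049) to leptotene, a call that 7 of 9 fits without 1 library lost. With the block neither Fbxo40 (-1.08, adjusted p = 0.2) nor Fbxo17 (-0.73, adjusted p = 0.19) passed, and Fbxo40 did not without leptotene library 1 (-1.17, adjusted p = 0.064). Fbxo27, at 0.894, 1.38 and 0.528 FPKM in spermatogonia and 0 to 0.0968 in leptotene, did not pass the filter. Beside these members moved markers of somatic cells: from spermatogonia to leptotene in total RNA 3 of 4 Leydig markers, 5 of 5 Sertoli markers, 3 of the 3 peritubular and vascular markers tested and 1 of the 2 blood markers tested fell, and no marker of these lists rose. In leptotene and pachytene the Leydig marker Insl3 was listed at 0 in leptotene libraries 1, 2 and 4 and pachytene libraries 3 and 4 of total RNA, and summed Leydig markers were 1.95 to 19.6 FPKM. Markers of spermatogonia moved as well. From spermatogonia to leptotene in total RNA, 3 of 5 markers of undifferentiated spermatogonia fell and 0 rose. Of 3 markers of differentiating spermatogonia, 0 fell and 0 rose. The part of somatic or spermatogonial RNA in the fall of these F-box genes was not tested.

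The 2 nascent risers from spermatogonia to leptotene were Fbxl15 and Skp1a. Fbxl15, a receptor for the ubiquitin ligase Smurf1, held 0.501, 0.124 and 0.739 FPKM of nascent RNA in spermatogonia, 4.88 in preleptotene and 5.802, 1.21, 2.22 and 4.15 in leptotene, a rise of 1.42 ± 0.38 (adjusted p = 0.036). The call was lost without spermatogonial library 2 or 3, leptotene library 1 or 4 or pachytene library 2 (highest adjusted p = 0.23). Its total RNA changed by 0.42 ± 0.38 (adjusted p = 0.58), and 25.6% of its exonic bases overlap Cuedc2. Leaving out leptotene libraries 2 and 3, an alternative chosen after the data were seen, gave 5 risen and 10 fallen members in total RNA (8.08% and 18.9% of all genes). Total RNA of Fbxl15 then rose by 0.90, adjusted p = 0.044, of Fbxo45 by 0.77, adjusted p = 0.038, of Fbxo5 by 1.68, adjusted p = 0.0078, of Fbxo2 by 0.94, adjusted p = 0.014 and of Fbxo24 by 0.73, adjusted p = 0.034. Fbxo45, a partner of the ligase MYCBP2, held 9.47, 9.302 and 11.51 FPKM in spermatogonia, 18.8 in preleptotene, 18.7, 6.62, 12.2 and 18.2 in leptotene and 6.58, 7.05, 6.72 and 7.33 in pachytene. Fbxo42, which binds p53, was spread less, from 11.7 to 19.8 FPKM over all 12 total libraries, with its highest values in preleptotene and leptotene libraries 1 and 4; its nascent RNA in these was 29.9, 31.2 and 23.3 FPKM, against 9.74 to 16.1 in spermatogonia and 6.15 to 15.8 in pachytene.

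The single preleptotene library allows no test. Its most abundant F-box transcripts of total RNA were Fbxo5 (22.1 FPKM), Fbxo45 (18.8) and Fbxo42 (18.4), and in spermatogonia, by the mean over animals, Fbxw11 (17.5), Fbxo21 (17.2) and Fbxl6 (15.6). In pachytene Fbxw5 (149) was followed by Fbxo43 (34.3), Fbxw10 (31.9), Fbxo36 (23.8) and Fbxo38 (21.7), so by these means no member was among the leading 3 both in spermatogonia and in pachytene. By the mean over the 3 spermatogonial libraries Fbxo32 (17.8) led and Fbxw11 (17.7) followed.

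The genes added by name, the shared core and Skp2, behaved differently from gene to gene. Cul1 and Rbx1 did not pass in any contrast of either assay. Cul1 held 7.76, 3.89 and 13.1 FPKM of total RNA in spermatogonia, 11.2 in preleptotene, 14.2, 8.46, 12.3 and 8.61 in leptotene and 12.999, 12.4, 17.8 and 13.3 in pachytene. The change from spermatogonia to pachytene was 0.64 ± 0.43 (adjusted p = 0.24) for Cul1 and 0.27 ± 0.40 (adjusted p = 0.6) for Rbx1, whose values ran from 9.73 to 28.04 FPKM. Skp2, the receptor for the inhibitor p27, fell from 2.26, 2.84 and 1.83 to 0.817, 0.423, 0.933 and 0.708 FPKM in total RNA, with changes of -0.89 ± 0.32 (adjusted p = 0.043) in total and -1.197 ± 0.35 (adjusted p = 0.017) in nascent RNA; with the block these were -0.72, adjusted p = 0.43 and -0.86, adjusted p = 0.44, and the total call was also lost without any of spermatogonial libraries 2 and 3, leptotene library 1 and pachytene libraries 1 and 2 (highest adjusted p = 0.11).

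Skp1a was uneven within stages. Total RNA of Skp1a was 5.16, 3.39 and 5.43 FPKM in spermatogonia, 2.85 in preleptotene, 48.4, 22.9, 2.07 and 2.62 in leptotene and 26.96, 98.9, 26.2 and 90.9 in pachytene. Leptotene library 1 lay far from libraries 3 and 4, and pachytene libraries 2 and 4, from 1 animal, stood above libraries 1 and 3, from another. Nascent RNA of Skp1a was 20.7, 4.41 and 3.77 FPKM in spermatogonia, 3.79 in preleptotene, 24.2, 20.1, 24.4 and 20.1 in leptotene and 18.6, 18.3, 17.7 and 34.8 in pachytene. Nascent RNA lay from 20.1 to 24.4 FPKM in leptotene and from 17.7 to 18.6 in pachytene libraries 1 to 3, with pachytene library 4 higher, and 1 spermatogonial library stood above the other two. The total RNA rise to pachytene was 3.15 ± 1.08 (adjusted p = 0.035) from spermatogonia and 2.82 ± 0.98 (adjusted p = 0.048) from leptotene. Without the library labelled leptotene 2 neither passed (3.15, adjusted p = 0.074 and 2.65, adjusted p = 0.098), nor without leptotene library 1 (3.15, adjusted p = 0.052 and 2.998, adjusted p = 0.19) or spermatogonial library 3 (3.31, adjusted p = 0.14 and 2.82, adjusted p = 0.098). The call from leptotene stayed in 2 of the 11 fits without 1 library, those without pachytene libraries 3 and 4, and the call from spermatogonia in 8. Its nascent RNA rose from spermatogonia to leptotene by 1.69 ± 0.45 (adjusted p = 0.036), a call lost in 6 of 11 fits without 1 library (highest adjusted p = 0.3); with the block the change was 1.62, adjusted p = 0.095, and in the 5S-corrected table its adjusted p was 1.

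Unevenness of this kind marked other members as well. Between libraries of the same animal and stage, Fbxo34 had 0.368 and 15.9 FPKM in spermatogonial libraries 1 and 2, and 41.8 and 0.8003 in pachytene libraries 2 and 4. Fbxo30 had 11.1 and 0.292 FPKM in pachytene libraries 1 and 3, and 0.272 and 13.5 in libraries 2 and 4. Counting pairs that differed at least 4-fold, with 2 FPKM or more in the higher library, 3 of 49 members did so between spermatogonial libraries 1 and 2 (5.86% of all genes), 3 of 42 between pachytene libraries 1 and 3 (7.99%) and 3 of 41 between pachytene libraries 2 and 4 (6.49%). Leptotene libraries 1 and 2, of which the second went against its label, differed so in 16 of 50 members (37.4% of all genes). In nascent RNA the counts were 1 of 44, 0 of 29 and 1 of 37 in the first 3 kinds of pair (4.19%, 10.2% and 7.98% of all genes) and 8 of 39 between leptotene libraries 1 and 2 (29.3%).

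**Figure D4:**
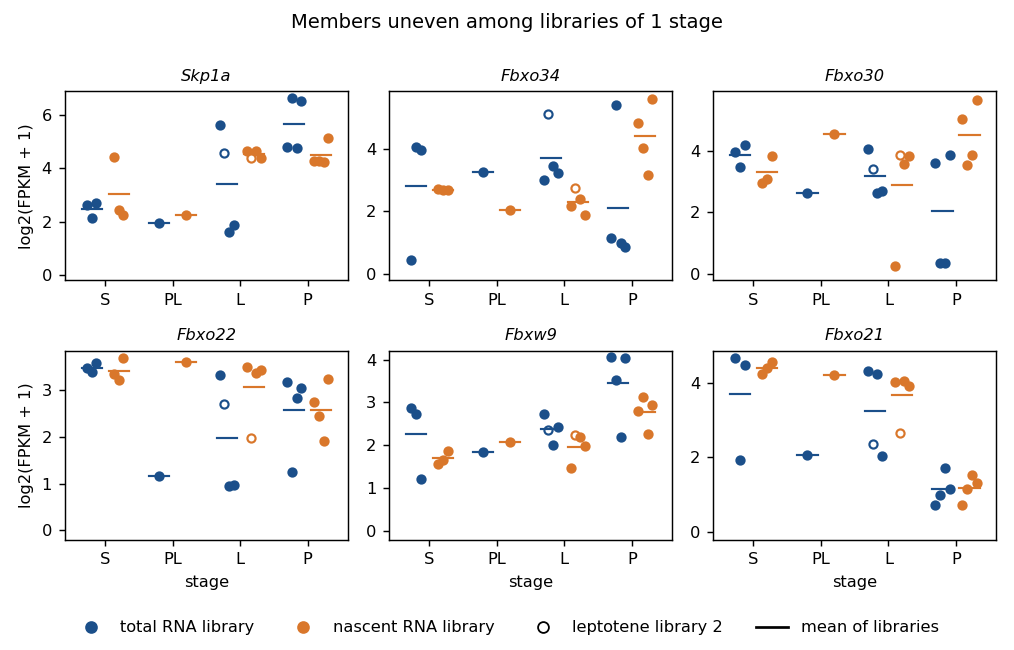
Level of 6 members by stage (S, PL, L, P as above) as log2(FPKM + 1), total libraries in blue, nascent in orange, the library labelled leptotene 2 as an open circle and a line at the mean of the libraries. Total RNA of Skp1a, Fbxo34, Fbxo30, Fbxo22, Fbxw9 and Fbxo21 falls into separate high and low libraries within at least 1 stage, such as Fbxo34 at 41.8 and at most 1.22 FPKM in pachytene.

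Fbxo21 shows how such libraries weigh on a test. Total RNA of Fbxo21 was 24.01, 2.83 and 21.1 FPKM in spermatogonia, 3.21 in preleptotene, 18.9, 4.14, 17.9 and 3.14 in leptotene and 0.653, 1.004, 2.31 and 1.22 in pachytene. Spermatogonial library 2, the preleptotene library and leptotene libraries 2 and 4 lay at 2.83 to 4.14 FPKM, below the other spermatogonial and leptotene libraries. Nascent RNA of Fbxo21 was 17.7, 19.8 and 22.5 FPKM in spermatogonia, 17.5 in preleptotene, 15.1, 5.299, 15.6 and 14.1 in leptotene and 0.662, 1.22, 1.89 and 1.47 in pachytene. In nascent RNA the spermatogonial and leptotene libraries other than the one labelled leptotene 2 lay close together. The fall to pachytene was -2.73 ± 0.67 (adjusted p = 0.0087) in total and -3.25 ± 0.44 (adjusted p = 0.00039) in nascent RNA; the nascent call was kept in all 11 fits without 1 library, whereas the total call was lost without spermatogonial library 1 (-2.05, adjusted p = 0.079) or 3 (-2.14, adjusted p = 0.092). Fbxo22, with 9.05, 5.52, 0.921 and 0.961 FPKM in leptotene and 8.102, 1.38, 6.102 and 7.27 in pachytene, passed in no total RNA contrast; 15.4% of its exonic bases overlap Nrg4. Total RNA of Fbxo30 fell by 1.91 ± 0.44 (adjusted p = 0.0065) from spermatogonia to pachytene, though 2 of its pachytene libraries lay within the spermatogonial range; the call was lost without spermatogonial library 3 (-1.69, adjusted p = 0.057) or pachytene library 2 (-1.03, adjusted p = 0.2) or 3 (-1.11, adjusted p = 0.13) and with the block (-1.26, adjusted p = 0.25).

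The calls of both assays were then set side by side. Of the 57 members tested in both, 22 (38.6%) passed in both from spermatogonia to pachytene, all in the same direction. Of all 15914 genes tested in both, 38.3% passed in both, 99.8% of them in the same direction. Another 8 members passed in total RNA only, 3 in nascent RNA only and 24 in neither. The 7 risers of both assays were 58.3% of the total RNA risers and 77.8% of the nascent ones, and the 15 fallers 78.9% and 93.8%. Over all genes these shares were 51.3% and 89.0% for risers and 66.7% and 83.2% for fallers. From leptotene to pachytene 6 risers were shared (54.5% and 75.0%), namely Fbxw5, Fbxo43, Fbxw10, Fbxo36, Fbxo4 and Fbxw17, and 8 fallers (72.7% and 80.0%), namely Fbxo5, Fbxo10, Fbxo21, Fbxw2, Fbxo18, Fbxl4, Fbxl16 and Fbxl22. With the animal as a block the fall of Fbxo10 and Fbxo21 passed in both assays, that of Fbxo5 in total RNA only and that of the other 5 in neither, and the rise of Fbxw17 passed in neither. In the 5S-corrected table the nascent change from leptotene to pachytene turned for Fbxo18 and Fbxw11, to 0.0187 and 0.403, neither of which passed. Fbxo32 and Fbxl7 fell in both from spermatogonia to leptotene.

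**Figure D5:**
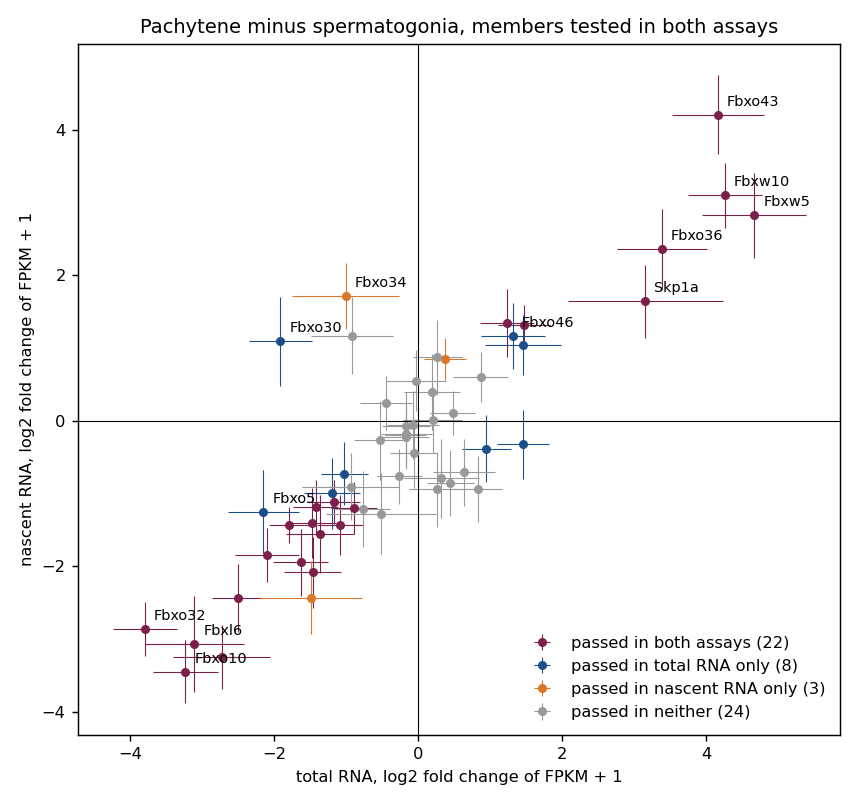
Log2 fold change of FPKM + 1 from spermatogonia to pachytene in total RNA (horizontal axis) and nascent RNA (vertical axis) for the 57 members tested in both; bars are SE and colours give the assays in which a member passed. The 22 members that passed in both lie in the lower left and upper right, and Fbxo34 and Fbxo30 lie in the upper left.

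The difference between the assays was tested itself, as the interaction of assay and stage. No member passed: from spermatogonia to leptotene 0 of 61 were called and 0 had an unadjusted p under 0.05, and from leptotene to pachytene 0 were called and 6 had an unadjusted p under 0.05 (limma; 0.0601% of 19955 genes passed towards total and 0.015% towards nascent RNA, and for spermatogonia to leptotene 0.01% and 0.0902%). The 6 were Fbxo34 (-3.62 ± 0.83, adjusted p = 0.15), Fbxo30 (-2.35 ± 0.73, adjusted p = 0.34) and Fbxo3 (-2.33 ± 0.74, adjusted p = 0.37), with less total than nascent gain, and Skp1a (2.87 ± 1.17, adjusted p = 0.52), Fbxl5 (1.44 ± 0.49, adjusted p = 0.4) and Fbxo38 (1.11 ± 0.50, adjusted p = 0.58), with more. Fbxo34 passed without the library labelled leptotene 2 (-3.37, adjusted p = 0.042). In that fit 3.06% of all genes passed towards total and 0.448% towards nascent RNA. Nascent RNA of Fbxo34 in pachytene was 27.4, 15.4, 8.03 and 47.01 FPKM, beside 1.22, 41.8, 1.003 and 0.8003 in total RNA. Fbxo36 passed without leptotene libraries 2 and 3 (1.64, adjusted p = 0.042), where 2.71% and 0.587% of all genes did. In nascent RNA alone, Fbxo34 rose from leptotene to pachytene, by 1.74 to 2.56 over 11 fits without 1 library. All 11 kept that call. Its nascent rise from spermatogonia was lost without spermatogonial library 3 or pachytene library 1 (highest adjusted p = 0.094 in limma). The fit with the animal as a block is not given for these rises.

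Some members passed in no main contrast of either assay, Fbxo28, Fbxw8, Fbxl17, Fbxo8 and Fbxw7 among them. Fbxo28 ran from 9.51 to 13.9 FPKM and Fbxw8, which works with Cul7, from 11.4 to 20.00 over all 12 libraries; 33.4% of the exonic bases of Fbxw8 overlap Gm9754. Fbxl17 and Fbxo8 ran from 1.05 to 2.82 FPKM. Fbxw7, the receptor for cyclin E, MYC and Notch, held 7.47, 6.297 and 8.21 FPKM in spermatogonia, 11.2, 11.4, 8.54 and 15.1 in leptotene and 9.69, 11.05, 5.16 and 4.49 in pachytene, where libraries 3 and 4 lay below 1 and 2; its largest total RNA change was -0.60 ± 0.33 (adjusted p = 0.17), from leptotene to pachytene. That these 5 genes did not pass does not show that their stages did not differ.

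Fbxw11, or beta-TrCP2, the receptor for phosphorylated beta-catenin and IkappaB, was among the leading transcripts of spermatogonia. Total RNA of Fbxw11 was 18.7, 17.7 and 16.8 FPKM in spermatogonia, 12.04 in preleptotene, 10.9, 7.87, 14.7 and 1.74 in leptotene and 5.81, 6.08, 4.702 and 5.82 in pachytene. Leptotene library 4 lay below every pachytene library. Total RNA changed by -1.49 ± 0.70 (adjusted p = 0.11) from spermatogonia to pachytene and did not pass, while without leptotene library 4 it was -1.49, adjusted p = 0.011 and with the block -2.98, adjusted p = 0.029. Nascent RNA fell by 2.43 ± 0.50 (adjusted p = 0.0026), from 11.9, 12.6 and 16.6 to 1.91, 1.44, 1.11 and 3.32 FPKM, with the call kept in all 11 fits.

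At the other end, 21 members did not pass the filter in total RNA and are accounted for by name. Of these, 15 are the Fbxw genes Fbxw13 to Fbxw16 and Fbxw18 to Fbxw28. They lie together on the minus strand between the start of Fbxw21 at chr9:109139447 and the end of Fbxw27 at chr9:109790670 (GRCm38, GENCODE M21, in which Fbxw23 is a transcribed unprocessed pseudogene). Fbxw27 was the highest, at up to 0.95 FPKM, and Fbxw16, Fbxw19, Fbxw20, Fbxw22, Fbxw23, Fbxw24 and Fbxw28 were listed at 0 in every library. Reads of near-identical copies may be split or lost in such a cluster, so these values are uncertain. The other 6 were Fbxl2, Fbxl13, Fbxl21, Fbxo16, Fbxo27 and Fbxo39; Fbxl8, Fbxo2, Fbxo17 and Fbxo44 passed in total but not in nascent RNA.

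The genes that act around the receptors were described from lists. Of 30 genes of cullin neddylation, the COP9 signalosome and CAND1, which cycle cullin ligases between active and inactive states, 5 rose and 1 fell in total RNA from leptotene to pachytene. Of all genes 22.4% rose and 17.7% fell. The list median was 0.31 against -0.07 for all genes. Without the library labelled leptotene 2, 9 rose and 3 fell (28.8% and 24.7% of all genes). The risers were Cops7a (2.07 ± 0.53, adjusted p = 0.015), Cops5 (1.74 ± 0.33, adjusted p = 0.0048), the catalytic subunit of the signalosome, Cops4 (1.66 ± 0.34, adjusted p = 0.0063), Gps1 (1.604 ± 0.39, adjusted p = 0.012) and the exchange factor Cand1 (1.39 ± 0.35, adjusted p = 0.014). In nascent RNA 2 of 29 rose, Dcun1d4 (2.97 ± 0.42, adjusted p = 0.00086) and Ube2r2 (1.29 ± 0.40, adjusted p = 0.031), and 0 fell, with a list median of -0.08 against -0.27. Of all genes 15.8% rose and 15.4% fell in nascent RNA. From spermatogonia to leptotene 0 of 30 passed in total RNA and 1 of 29, Ube2d1, fell in nascent RNA. Over all genes 0.286% rose and 9.52% fell in total RNA there, and 0.696% rose and 9.9% fell in nascent RNA.

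Among 17 tested genes of other cullin ligases, total RNA of 6 rose and of 3 fell from leptotene to pachytene, with a list median of 0.28. The shares of all genes were the same 22.4% and 17.7%. Kctd19, a meiotic partner of the factor ZFP541, rose by 3.06 ± 0.46 (adjusted p = 0.0032), Cul4a by 1.74 ± 0.32 (adjusted p = 0.0043) and Elob by 1.88 ± 0.37 (adjusted p = 0.0056), while Cul4b fell by 2.73 ± 0.40 (adjusted p = 0.0032). Rnf7, the RING partner of Cul5, fell by 4.73 ± 0.31 (adjusted p = 0.0025) in total RNA, from 25.5, 64.4, 29.1 and 27.7 to 0.1898, 0.259, 0.308 and 0.208 FPKM, while its nascent RNA was 20.2, 20.7, 16.3 and 35.6 FPKM in pachytene; it passed the interaction test (-5.33 ± 0.49, adjusted p = 0.0007). Of 20 genes of the APC/C and its partners, the targets of Fbxo5 and Fbxo43, 6 rose and 2 fell in total RNA, with a list median of 0.41. These counts stand beside the same 22.4% and 17.7% of all genes. Cks2 rose by 2.47 ± 0.40 (adjusted p = 0.0034), Anapc11 by 1.83 ± 0.32 (adjusted p = 0.0038), Ube2s by 1.495 ± 0.39 (adjusted p = 0.017) and the activator Cdc20 by 1.01 ± 0.34 (adjusted p = 0.041), and Anapc5 fell by 1.15 ± 0.32 (adjusted p = 0.02). In nascent RNA 1 of 19 rose and 2 fell, where 15.8% of all genes rose and 15.4% fell. The list median there was -0.29 against -0.27 for all genes. Leaving out leptotene library 1, which left animal IND1 with the library labelled leptotene 2 alone, ended nearly all of these total RNA calls. Of the 6 in the neddylation list 0 were left, of the 9 among other cullin ligases 1, that of Rnf7, and of the 8 in the APC/C list 0.

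Of 25 genes whose proteins are known SCF substrates, 2 rose and 15 fell in total RNA from spermatogonia to pachytene, with a list median of -1.72 against -0.14 for all genes, and nascent RNA gave 1 and 15, with a median of -1.32 against -0.39. Of all genes 23.1% rose and 29.7% fell in total and 15.6% and 27.9% in nascent RNA. Markers of somatic cells fell in the same total RNA contrast. They were 5 of 5 Sertoli, 3 of 4 Leydig, 3 of 3 tested peritubular or vascular and 2 of 2 tested blood cell genes. Of 5 markers of undifferentiated spermatogonia 4 fell and 1 rose, and of 3 of differentiating spermatogonia 2 fell and 0 rose. The part of somatic or spermatogonial RNA in the fall of the SCF substrates was not tested. Nfkbia fell by 3.903 ± 0.37 (adjusted p = 0.00087), Ccnd2 by 3.71 ± 0.44 (adjusted p = 0.00092) and Rrm2 by 3.21 ± 0.73 (adjusted p = 0.006), and Ccp110, a centriole protein, rose by 3.32 ± 0.48 (adjusted p = 0.0012). From spermatogonia to leptotene 5 of the 25 fell in total RNA (20.0%, against 9.52% of all genes). These genes were listed for their proteins, and no protein was measured. Of the 5 tested F-box genes with other names, Lrrc29 rose by 2.36 ± 0.34 (adjusted p = 0.0032) and Ccnf, the F-box protein cyclin F, fell by 2.09 ± 0.32 (adjusted p = 0.0032) from leptotene to pachytene. Both calls were lost without leptotene library 1. The animals behind these tests number 2 or 3 a stage, and several animals gave more than 1 stage. The call of every total RNA change from leptotene to pachytene among the F-box members was lost without leptotene library 1. That fit left animal IND1 with the library labelled leptotene 2 alone, and of all 19005 genes 8 rose and 1 fell in it.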

How the data were processed

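Total RNA and EU-labelled nascent RNA were sequenced in 12 libraries each. Per the submitters' processing notes, reads were handled with STAR 2.5.2a and StringTie on mm10; the annotation and the use of strand in counting are not given in the sources used here. The authors deposited FPKM per gene, and for 9 nascent libraries a further table in which the signal is FPKM corrected to 5S RNA by the authors, used only as an alternative. FPKM hold no read counts, so the depth behind a value is unknown, and they are relative to the other RNA of the library.

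The animal named in the labels was the replicate: libraries of 1 animal and stage were averaged as log2(FPKM + 1), and limma 3.58.1 (R 4.3.3, moderated test with a mean-variance trend) was fitted to all genes at 1 FPKM or more in at least 2 libraries, over all stages of an assay. Its p-values were adjusted by Benjamini-Hochberg over all genes tested at a threshold of 0.05. They set a change against the spread between animals, estimated over all stages of an assay together. In leptotene, the mean of 1 animal of each assay averages leptotene library 1 with the library labelled leptotene 2. That mixed mean enters the spread behind every contrast, also the one from spermatogonia to pachytene. Spike-in rows were left out, and the FPKM of the other rows were not rescaled for them in the main fits. An interaction fit compared total with nascent RNA. Animals that gave 2 stages are shared between groups by the labels; their deviations from the stage means correlated at 0.08, 0.015 and 0.084 in total and -0.16, -0.119 and 0.054 in nascent RNA. The fit with the animal as a block is given beside a result where it changed the call.

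By rule, the text names per comparison up to 12 risen and 12 fallen members that were called, whose libraries did not overlap between the stages and whose higher stage averaged 2 FPKM or more, always Skp1a, Skp2, Cul1, Rbx1, Fbxo5, Fbxo43, Fbxw7 and Fbxw11, and up to 4 called genes of each list; every other gene named was chosen after its values were seen. The values of 1 member are not reported here, though counts over the members include it. The members, lists and motifs were chosen with earlier results of these data known. Alternatives changed the pseudocount, the filter, the scaling, the replicate, the libraries included and the table. Only the total RNA fit from spermatogonia to leptotene was tested on simulated data, with every library true to its label and animals independent between stages. Coordinates and exon overlaps come from GENCODE M21 (GRCm38.p6), in which 81 of 82 members were found, and windows before gene starts from RefSeq, which held 62 of 82. Fbxo43 was among those without a window.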

Additional observations from a re-analysis of the deposited data

Results flagged for a closer look

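Among 111 groups of 4 leptotene or pachytene libraries of the members named by rule, 21 held 1 library whose gap to the others was larger, relative to the group's range, than Dixon's critical value; chance gives about 1 in 20 for independent libraries, whereas the 4 pachytene libraries come from 2 animals and leptotene libraries 1 and 2 from 1. In total RNA 8 of these were the library labelled leptotene 2, which held more than the other leptotene libraries for Fbxw5 (113 FPKM), Fbxo34 (33.5), Fbxo43 (25.4), Fbxo36 (23.8), Fbxw10 (14.2), Fbxo44 (3.53) and Fbxo4 (2.99), and less for Fbxo46 (0.0103). In nascent RNA the library of that label stood high for Fbxw5 (31.1) and Fbxw10 (4.78) and low for Fbxo21 (5.3).

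Pachytene library 3 stood above the other pachytene libraries for Fbxo10 in total (1.94 FPKM) and nascent RNA (1.33) and for Fbxo5 in total RNA (2.47). Pachytene library 2 did for Fbxo34 in total RNA (41.8). Nascent pachytene library 4, the one with the smallest spike-in share of its stage, was highest for Skp1a (34.8), Fbxw7 (14.6), Fbxw10 (13.8) and Cul1 (11.1). Nascent leptotene library 1 stood apart for Cul1 (17.4) and leptotene library 3 for Fbxl6 (7.44).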

How the results depend on the processing

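Counts below are of members called, in the order spermatogonia to leptotene, leptotene to pachytene and spermatogonia to pachytene, with 3, 22 and 31 in total RNA and 5, 18 and 25 in nascent RNA as reported. With the animal as a replicate block they were 5, 11 and 18 in total and 8, 10 and 14 in nascent RNA; the block made no call in the test of total against nascent RNA. Leaving out 1 library gave 2 to 6, 0 to 32 and 13 to 32 in total, 2 to 13, 6 to 22 and 13 to 28 in nascent RNA, and 0 and 0 to 1 in that test. From spermatogonia to leptotene, total RNA gave 6 with every library as its own sample (348 risen and 3059 fallen of 19202 genes). It gave 6 without the library labelled leptotene 2 (0.79% and 11.4% of all genes) and 15 without leptotene libraries 2 and 3 (8.08% and 18.9%). Nascent RNA gave 3 with no filter on low values (39 risen and 2130 fallen of 33102 genes). With every library as its own sample it gave 8 (469 and 2497 of 16375 genes). It gave 14 without leptotene libraries 2 and 3 (12.4% and 21.3% of all genes) and 16 in the 5S-corrected table (0.461% and 27.2%). Uncorrected FPKM of the same 9 libraries gave 19, and 31 from leptotene to pachytene. For these counts the shares of all genes are not given here. Scaling nascent RNA to spike-ins left 0, 0 and 0 calls in limma, with 0, 1 and 2 members at an unadjusted p under 0.05. For total against nascent RNA, spike-in scaling gave 1 call from spermatogonia to leptotene and 7 from leptotene to pachytene, without shares of all genes given here. From leptotene to pachytene, leaving out leptotene library 2 gave 1 (3.06% of all genes towards total and 0.448% towards nascent RNA). Leaving out libraries 2 and 3 also gave 1 there (2.71% and 0.587%). In the 5S-corrected table the nascent change from leptotene to pachytene turned to 0.0187 for Fbxo18 and 0.403 for Fbxw11. The cause was not tested. Of the alternatives for single genes, 1991 kept direction and side of the threshold, 35 gained a call, 225 lost one and 2 turned. Scaling total RNA to spike-ins moved the median of all genes from leptotene to pachytene from -0.07 to 0.62, and 5S correction that of nascent RNA from -0.24, in uncorrected FPKM of the same 9 libraries, to 0.87. With 2 or 3 animals a stage, FPKM without counts and 1 leptotene library against its label, small changes could not be told from the spread between animals.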
